A study of Homo sapiens with 6 samples.

Results

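The miR-30 family was followed through an RNA immunoprecipitation with an antibody against N7-methylguanosine (m7G). Its members were the rows of the deposited count table named for the 5p and 3p arms of miR-30a to miR-30e, 10 of the 2588 mature miRNAs listed, and all 10 passed the filter on low counts that 800 miRNAs passed. The libraries came from Caco-2, an established cell line from a colorectal adenocarcinoma, for which the labels name no knockdown and no treatment. All groups share the same preparation, in which total RNA was decapped and heat-denatured. The 3 input libraries hold an aliquot of that RNA and the 3 m7G-RIP libraries hold the RNA bound by the antibody (MBL RN017M). No library from a control antibody was analysed here. Nothing in the labels says that the libraries of a group came from separate cultures, so the p-values below measure only the spread between these libraries, which may be technical.

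A miRNA hairpin is cut into a duplex whose strands come from its 5p and 3p arms. In most hairpins 1 strand is kept in the silencing complex and the other is largely degraded. The bases near the 5′ end of the kept strand, the seed, choose its mRNA targets, and miRNAs that share a seed are grouped as a family. The miR-30 5p arms form such a family, which is abundant in epithelia and is known to repress SNAI1, a factor of epithelial-to-mesenchymal transition, and the autophagy gene BECN1. m7G is the base of the mRNA cap and also occurs inside tRNA and rRNA, where METTL1 places it in tRNA. The study asked which mature miRNAs carry it internally.

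The sequences below are shown because a single base separates miR-30a-5p from miR-30e-5p, which differed in the immunoprecipitation. They were read from RefSeq (GRCh38.p14), which gave 6 of the 10 members, and are written 5′ to 3′ with the seed, bases 2 to 8, in capitals.

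miR-30a-5p: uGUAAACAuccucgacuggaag
miR-30e-5p: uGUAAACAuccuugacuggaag
miR-30c-5p: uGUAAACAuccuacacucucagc
miR-30a-3p: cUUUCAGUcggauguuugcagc
miR-30e-3p: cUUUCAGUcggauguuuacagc
miR-30c-2-3p: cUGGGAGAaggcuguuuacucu
miR-30c-1-3p: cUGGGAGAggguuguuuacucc

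The last of these is not a member but the 3p arm of the second hairpin that gives miR-30c-5p. The 3 5p sequences share their first 12 bases. Counting from 1 at the 5′ end of miR-30a-5p, miR-30e-5p differed from it only by C13U, while miR-30c-5p differed at 5 positions, C13A, G14C, G18C, G19U and A20C. The 3p arms of miR-30a and miR-30e also differed at a single position, G18A, counted on miR-30a-3p. No tested miRNA outside the family had the seed of miR-30a-5p among the 714 with a RefSeq sequence.

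MIR30E lies on chromosome 1 (GRCh38) from 40754355 to 40754446 on the plus strand, and MIR30C1 follows it from 40757284 to 40757372, 2837 bases further on. In GENCODE both are in an intron of NFYC, on the same strand. MIR30A lies on chromosome 6 from 71403551 to 71403621 on the minus strand, in an intron of the long noncoding RNA LINC00472. MIR30C2, on the same chromosome and strand from 71376960 to 71377031, overlaps an exon of LINC00472.

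The libraries held 16466178 to 19628046 counts on miRNAs for the input group and between 1654102 and 3105129 for m7G-RIP. Levels are given in CPM, counts scaled to a common library size after TMM correction, which allows for differences in composition. At these depths 3 counts were worth 0.235 to 0.262 CPM in an input library and between 0.676 and 1.11 CPM in an m7G-RIP library, a floor that covers counting error only. A read spans a whole mature miRNA, of 22 or 23 bases in the members with a sequence, so levels of members were compared without correction for length. The preference of the library kit for certain ends was not measured. The epithelial and intestinal miRNAs chosen as markers of the cell line were present, 8 of 8 at 247 to 59560 CPM in the input. Of 10 miRNAs chosen for other cell types, 5 were under 3 CPM, but miR-9-5p, typical of neurons, had 2841 to 3078 CPM and miR-1-3p, typical of muscle, 617 to 684 CPM.

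In the input, miR-30d-5p made up nearly the whole family. It had 162332, 172482 and 166863 CPM in replicates 1, 2 and 3 and ranked 3 among all miRNAs by level. It took 93% ± 0.121 (SD, n = 3) of the family's counts and 11.4% ± 0.198 (SD, n = 3) of all counts. The other 5p arms were far lower, and they were followed by the 3p arms.

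The order among the remaining 5p arms in the input was miR-30c, miR-30b, miR-30e and miR-30a. miR-30c-5p had 4349 to 5193 CPM and miR-30b-5p 4181 to 4842 CPM, and these ranges overlapped. miR-30e-5p had 1572 to 1850 CPM and miR-30a-5p 625 to 653 CPM, each apart from its neighbours in the order. The level of miR-30c-5p needs a reservation, because its sequence lies at 2 loci. Every count of at least 20 on a miRNA with 4 loci was a multiple of 4 (18 of 18 values, from at most 6 miRNAs). This happens when a read is counted once at each locus. On miRNAs with 3 loci the pattern was less clean, with 26 of 44 such values a multiple of 3. Of 219 such values on miRNAs with 2 loci, 69% were even, against 49.8% of 2599 values on miRNAs with 1 locus. miR-30c-5p had even counts in 5 of 6 libraries, so its level may be overstated. Its change between the groups is free of this only if the counting was alike in both, which was not measured.

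Among the 3p arms miR-30e-3p was the highest in the input, with 430 to 471 CPM. miR-30b-3p had 165 to 190 CPM and miR-30d-3p 161 to 179 CPM, again overlapping. miR-30a-3p had 57.3 to 60.6 CPM. miR-30c-2-3p was close to the limit of measurement, with 33 to 40 counts or 2.88 to 3.13 CPM.

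**Figure D1:**
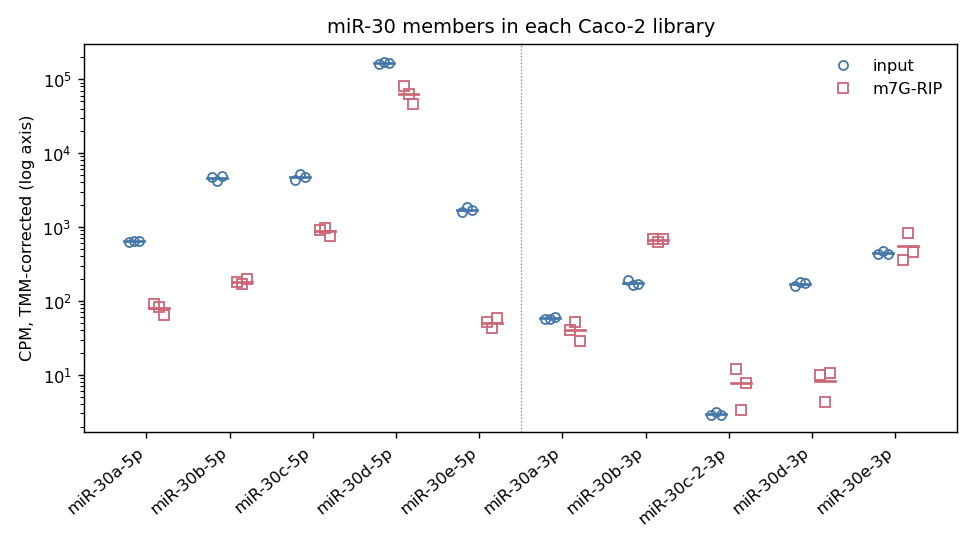
CPM of the 10 miR-30 members on a log axis, 5p arms left and 3p arms right of the dotted line. Circles are the 3 input libraries, squares the 3 m7G-RIP libraries and lines their means. All 5p arms are lower in m7G-RIP, while miR-30b-3p is higher and miR-30e-3p overlaps.

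All 5 of the 5p arms were depleted in m7G-RIP, whereas of the 3p arms 2 were enriched, 2 were depleted and 1 was not called. Calls were made at an adjusted p under 0.05 (edgeR's quasi-likelihood test over the 800 tested miRNAs, with Benjamini-Hochberg adjustment). In the same test 38.1% of all miRNAs were depleted and 40.1% enriched. Among all tested 5p rows 38.6% were depleted, and among all tested 3p rows 42.7%. The median log2 enrichment was -3.0 over the 5p members, 0.31 over the 3p members and 0.16 over all tested miRNAs. For 9 of the 10 members the CPM of the groups did not overlap, which was the case for 82.1% of all miRNAs. The split of calls over all miRNAs depends on the scaling, with 321 enriched and 305 depleted here, 442 and 198 when only total counts were used, and 418 and 227 under upper-quartile factors.

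The strongest loss was that of hsa-miR-30e-5p. Its 18434, 23609 and 19470 input counts corresponded to 1572, 1850 and 1699 CPM, and its 211, 189 and 157 m7G-RIP counts to 51.2, 42.6 and 57.8 CPM. Every m7G-RIP library was far below every input library. On the log2 scale the enrichment came to -5.08 (adjusted p = 9.37e-11, standard error 0.18), a level 33.9-fold lower in m7G-RIP, and only 28 of the 800 miRNAs had a lower value.

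hsa-miR-30b-5p also fell strongly. It had 4734, 4181 and 4842 CPM in the input and 179, 168 and 198 CPM in m7G-RIP. The groups were widely separated, and log2 enrichment was -4.66 (adjusted p = 9.37e-11, standard error 0.16), or 25.3-fold lower.

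hsa-miR-30a-5p lost less, although it differs from miR-30e-5p at a single base. It went from 625, 653 and 649 CPM to 91.5, 84 and 63.7 CPM. The log2 enrichment was -3.0 (standard error 0.17, adjusted p = 3.21e-09), or 8.03-fold lower, with no overlap between the groups.

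hsa-miR-30c-5p had 4349, 5193 and 4753 CPM in the input and 899, 980 and 748 CPM in m7G-RIP. The m7G-RIP libraries were again all below the input, and the log2 enrichment of -2.44 (adjusted p = 8.28e-09, standard error 0.15) was equal to a level 5.44-fold lower.

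hsa-miR-30d-5p, the abundant member, was the least depleted of the 5p arms. Its 3 m7G-RIP libraries had 80065, 63016 and 45929 CPM, more spread out than the 3 input libraries but all below them. The log2 enrichment was -1.41 (standard error 0.19, adjusted p = 1.61e-05), or 2.65-fold lower, and miR-30d-5p ranked 2 among all miRNAs of the immunoprecipitate. It was -0.33 (adjusted p = 0.0319) when libraries were scaled by their total counts alone, a scaling that raised the median of all tested miRNAs by 1.09.

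The 3p arms went in different directions. hsa-miR-30b-3p, the partner strand of a strongly depleted 5p arm, was enriched. It had 190, 165 and 171 CPM in the input and 683, 635 and 693 CPM in m7G-RIP. The libraries of each group lay close together and the groups did not overlap. Enrichment on the log2 scale was 1.93 (adjusted p = 4.62e-08, standard error 0.14), or 3.82-fold higher.

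hsa-miR-30d-3p was depleted nearly as much as miR-30b-5p. Its counts fell from 1885, 2280 and 1991 in the input to 41, 19 and 29 in m7G-RIP, or from 161 to 179 CPM to between 4.28 and 10.7 CPM. The log2 enrichment was -4.40 (standard error 0.28, adjusted p = 9.87e-09), or 21.1-fold lower.

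hsa-miR-30c-2-3p had 34, 40 and 33 input counts and 50, 15 and 21 m7G-RIP counts. On the CPM scale m7G-RIP was higher, with 12.1, 3.38 and 7.74 against 2.9, 3.13 and 2.88, but 1 m7G-RIP library lay just above the input. The log2 enrichment was 1.37 (standard error 0.45, adjusted p = 0.0135). It was not called without m7G-RIP replicate 1, which gave 0.80 (adjusted p = 0.102), nor with DESeq2's size factors, which gave 1.02 (adjusted p = 0.0524), nor with its Wald test, also at 1.02 (adjusted p = 0.0572). The 3p arm of the other miR-30c hairpin, miR-30c-1-3p, had 29.8, 30.4 and 33.5 CPM in the input and 57.3, 56.3 and 68.5 CPM in m7G-RIP. It was enriched, with a log2 value of 0.95 (standard error 0.19, adjusted p = 0.000549).

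hsa-miR-30a-3p had 57.6, 57.3 and 60.6 CPM in the input and 40.3, 51.6 and 28.7 CPM in m7G-RIP. It was called depleted by a narrow margin, at -0.53 on the log2 scale (adjusted p = 0.043, standard error 0.22). Its direction rested on the scaling, since total counts alone gave 0.55 (adjusted p = 0.0346) and upper-quartile factors gave 0.29 (adjusted p = 0.259). The call was lost without input replicate 1, 2 or 3, at log2 values of -0.54, -0.54 and -0.43 (adjusted p = 0.0971, 0.0944 and 0.196).

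hsa-miR-30e-3p was the only member not called. It had 430, 471 and 435 CPM in the input and 359, 831 and 461 CPM in m7G-RIP, where replicate 2 stood above the others. The log2 enrichment was 0.31, with a 95% confidence interval from -0.22 to 0.83 and an adjusted p of 0.254. It was 0.51 and called without m7G-RIP replicate 1 (adjusted p = 0.0289), and -0.28 without m7G-RIP replicate 2 (adjusted p = 0.178). Under total counts and upper-quartile factors it was called enriched, at 1.41 and 1.12.

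**Figure D2:**
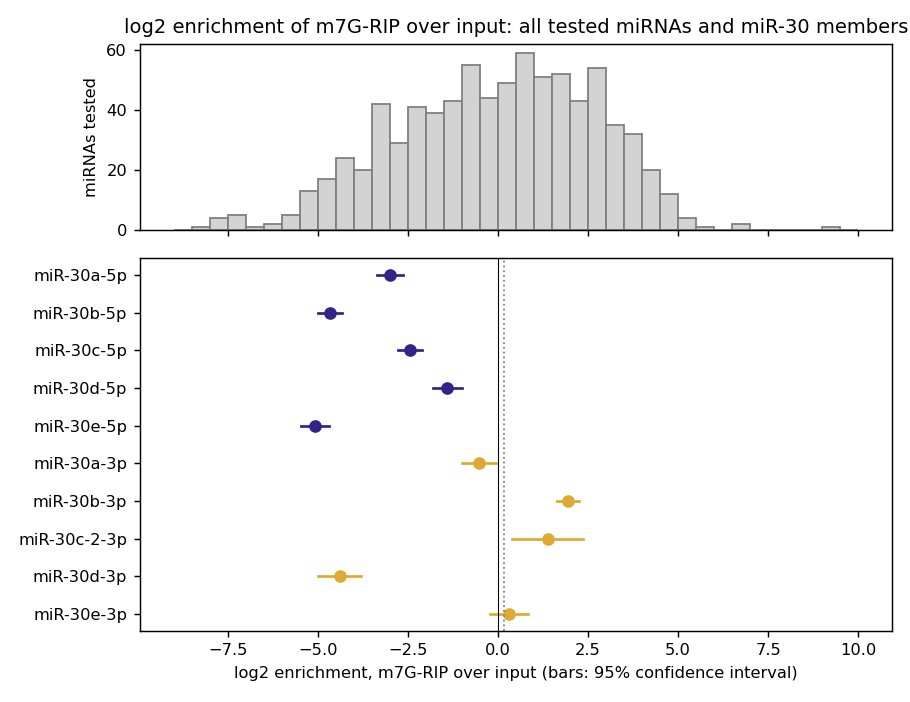
Top, number of the 800 tested miRNAs by log2 enrichment of m7G-RIP over input. Bottom, the same quantity for each miR-30 member with its 95% confidence interval (dark, 5p arms; yellow, 3p arms; dotted line, median of all tested miRNAs). The 5p arms run from -5.08 to -1.41 and the 3p arms from -4.40 to 1.93.

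The arms of a hairpin were then compared within each library. Both come from the same precursor, and their ratio in a library does not depend on how libraries are scaled. The ratio was tested in edgeR with a term for each library over all 207 hairpins with both arms measured. Because miR-30c-5p comes from 2 hairpins, its counts were set against each of its 3p arms, so those comparisons share the 5p counts. The change in the ratio was called in all 6 comparisons, where 69.6% of all hairpins were called. In 5 of them the 5p arm lost relative to the 3p arm, a direction called in 23.7% of hairpins. In miR-30d it gained, a direction called in 95 of the 207. The ratios of input and m7G-RIP libraries did not overlap in any of the 6, nor in 74.9% of all hairpins.

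The ratio turned over in miR-30b and miR-30e. In miR-30b the 5p arm made up 96.1%, 96.2% and 96.6% of the hairpin's counts in the input and 20.8%, 20.9% and 22.2% in m7G-RIP. The minor strand of the cells was thus the major strand of the immunoprecipitate in 3 of 3 libraries. The log2 enrichment of the 5p arm was lower than that of the 3p arm by a difference of -6.60 (95% confidence interval from -6.91 to -6.29, adjusted p = 7.71e-08), or 96.8-fold, and only 1 of the 207 hairpins had a lower value. In miR-30e the 5p arm went from 78.5%, 79.7% and 79.6% to 12.5%, 4.87% and 11.1%. The difference was -5.30 (95% confidence interval from -6.23 to -4.37, adjusted p = 3.35e-05), or 39.4-fold.

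The other hairpins kept the 5p arm as the major strand. In miR-30a its share was 91.6%, 91.9% and 91.5% in the input and 69.4%, 62% and 68.9% in m7G-RIP, a difference of -2.45 (standard error 0.19, adjusted p = 4.77e-05). Against miR-30c-1-3p the miR-30c-5p arm changed by -3.40 (standard error 0.21, adjusted p = 1.5e-05), and against miR-30c-2-3p by -3.76 (standard error 0.47, adjusted p = 0.000464). The share of miR-30c-5p in these hairpins may be inflated by the counting at 2 loci. The differences are free of it only if that counting was alike in both groups, which was not measured.

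miR-30d went the other way. Its 5p arm made up 99.9% of the hairpin's counts in every input library and still more in every m7G-RIP library. The log2 ratio of 5p to 3p counts, with 0.5 added to each, was 9.98, 9.92 and 9.91 in the input and 12.96, 13.81 and 12.05 in m7G-RIP. The difference in log2 enrichment was 3.02 (standard error 0.36, adjusted p = 0.000343), on only 19 to 41 m7G-RIP counts of the 3p arm. Over all 207 hairpins the median difference was 0.81, that is, towards the 5p arm.

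**Figure D3:**
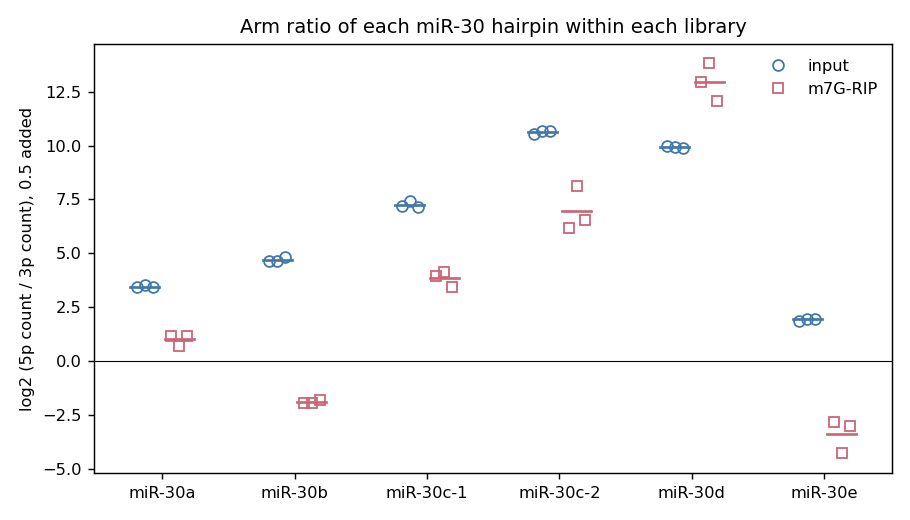
Log2 ratio of 5p to 3p counts for the 6 hairpins in each library, with 0.5 added to each count (circles, input; squares, m7G-RIP; lines, means of 3). The ratio falls in m7G-RIP for miR-30a, miR-30b, both miR-30c hairpins and miR-30e, passes below 0 for miR-30b and miR-30e, and rises for miR-30d.

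With miR-30d set aside, the 5p arms held a smaller share of the family after immunoprecipitation. The 5p arms made up 94.5% ± 0.193 (SD, n = 3) of the counts of the other 8 members in the input and 48.5% ± 3.73 (SD, n = 3) in m7G-RIP, where the libraries ranged from 45.6% to 52.7%. These shares contain miR-30c-5p, whose counts may be doubled. With its counts halved, a setting chosen after seeing the data, they were 93.2% ± 0.246 (SD, n = 3) and 37.4% ± 3.7 (SD, n = 3), with 34% to 41.3% in the m7G-RIP libraries. With miR-30d included the 5p share was 99.5% ± 0.00688 (SD, n = 3) and 98% ± 0.621 (SD, n = 3).

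The 5p arms share a seed, and they were compared with each other by scaling every library to the count of the more abundant member of a pair. In this fit a log2 enrichment is relative to that member, and p-values were adjusted over the other 799 miRNAs. All 10 pairs of 5p members were called. This has to be read against the background of those fits, in which 87.9% (scaled to miR-30b-5p), 82.2% (miR-30c-5p), 77.8% (miR-30d-5p) and 89.5% (miR-30e-5p) of all miRNAs were called. An exact permutation test of the within-library ratios, two-sided, gave p = 0.1 for each of the 10 pairs, the smallest it can give with 3 libraries against 3.

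The 5p members thus fell into an order from miR-30d through miR-30c and miR-30a to miR-30b and miR-30e. miR-30c-5p was below miR-30d-5p by a difference in log2 enrichment of -0.99 (95% confidence interval from -1.40 to -0.58, adjusted p = 0.000712). miR-30a-5p was below miR-30c-5p by -0.57 (from -0.97 to -0.18, adjusted p = 0.0108), a call lost without input replicate 3 at -0.57 (adjusted p = 0.0592). Each of these steps was under 1 log2 unit.

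The next step, from miR-30a-5p down to miR-30b-5p, was larger. The log2 enrichment of miR-30a-5p was above that of miR-30b-5p by 1.66 (from 1.20 to 2.13, adjusted p = 2.63e-06). miR-30e-5p and miR-30b-5p differed least, by -0.44 (from -0.85 to -0.02, adjusted p = 0.0474). That call was lost in 7 of 9 alternatives, with values between -0.52 and -0.30, among them the removal of any input library or of m7G-RIP replicate 1 or 2, so the order of these members is not firm.

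The pair that differs by C13U alone ranked 5 of the 10 5p pairs by absolute difference. In the ratio of miR-30a-5p to miR-30e-5p, the log2 difference between the groups was 2.10 (from 1.57 to 2.64, adjusted p = 2.13e-07), and it stayed between 1.94 and 2.32 in 9 alternatives. The ratio was below 1 in every input library and above 1 in 3 of 3 m7G-RIP libraries, where miR-30a-5p had 377, 373 and 173 counts against 211, 189 and 157. The authors' mapping allowed 1 mismatch, so a read of either miRNA with an error at this base could be counted on the other. How many were is not known. Reads of the far more abundant miR-30d-5p could not be judged in this way, as it had no sequence here. Its mean level was 167226 CPM in the input and 63003 CPM in m7G-RIP, against 642 and 79.7 CPM for miR-30a-5p. Whether such reads added to the counts of miR-30a-5p, and so to its place in the order, was not tested.

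Among the 3p members 8 of 10 pairs were called, with backgrounds of 66.8% (scaled to miR-30e-3p), 75.3% (miR-30b-3p), 75.1% (miR-30a-3p) and 85.2% (miR-30d-3p). miR-30d-3p stood below each of the others, by -6.34 (standard error 0.30) against miR-30b-3p and by -4.42 (standard error 0.54) against miR-30e-3p. The 3p arms that differ by G18A alone, miR-30a-3p and miR-30e-3p, had a difference of -0.74 with an interval from -1.68 to 0.20 (adjusted p = 0.162). It was called when miR-30a-3p was the reference, at -0.84 (adjusted p = 0.00941), and without m7G-RIP replicate 1, at -1.08 (adjusted p = 0.00957). miR-30c-2-3p and miR-30b-3p differed by -0.57, with an interval from -1.50 to 0.35 (adjusted p = 0.245), and that pair was called without m7G-RIP replicate 1, at -1.09 (adjusted p = 0.0246). The call for miR-30c-2-3p over miR-30e-3p, 1.40 (adjusted p = 0.0308), was lost in 6 of 9 alternatives, which gave 0.43 to 1.42, among them the removal of any input library or of m7G-RIP replicate 1. For this pair the within-library log2 ratios of the groups overlapped, and the exact permutation test gave p = 0.4. The ratios were -7.19, -7.21 and -7.22 in the input and -4.87, -7.9 and -5.86 in m7G-RIP.

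**Figure D4:**
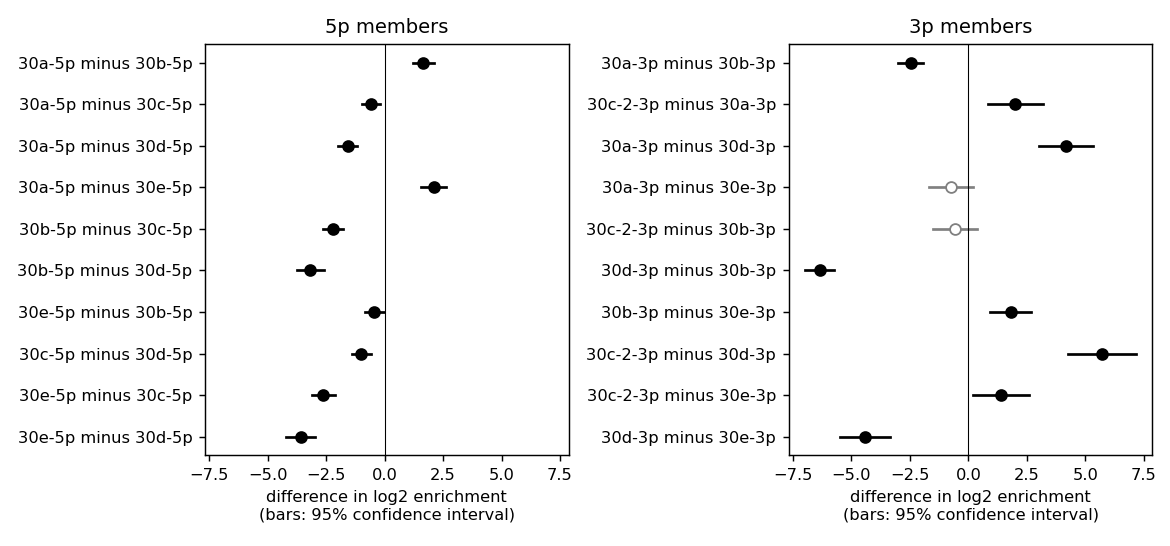
Difference in log2 enrichment between members, 5p pairs left and 3p pairs right, with 95% confidence intervals. Filled points have an adjusted p under 0.05 and open points do not. The 5p differences reach -3.59 for miR-30e-5p against miR-30d-5p, and the 3p differences -6.34 for miR-30d-3p against miR-30b-3p.

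Members with a sequence were set beside miRNAs of the same guanosine content, since the antibody reads a modified guanosine. This is a description across miRNAs of the same libraries, with no test. Over the 714 tested miRNAs with a RefSeq sequence, log2 enrichment tended to be higher with a larger share of G (Spearman's rho 0.497). The rise was not steady, with medians of 0.77 at 2 G, -0.73 at 3 G, -1.71 at 4 G and 0.93 at 8 G. miR-30a-5p and miR-30e-5p both have 5 G, and the 102 miRNAs with 5 G had a median of -1.44 and quartiles of -3.25 and -0.02. miR-30a-5p, at -3.0, lay within the quartiles and miR-30e-5p, at -5.08, below them.

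miR-30c-5p has 2 G, neither next to the other, in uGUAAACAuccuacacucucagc. The 44 miRNAs with 2 G had a median of 0.77 and a lower quartile of -0.44, so its -2.44 was low for that class. The median of that class was above those of the classes with 3 to 7 G. Among miRNAs with 4 G, -2.44 would lie within the quartiles, -3.32 and -0.20. The 3p members with a sequence were nearer to or above their peers. miR-30b-3p, at 1.93, and miR-30d-3p, at -4.40, had no sequence and could not be placed. miR-30a-3p (6 G, -0.53) lay within the quartiles of its class, -2.83 and 0.29. miR-30e-3p (5 G, 0.31) was above the upper quartile of -0.02, and miR-30c-2-3p (7 G, 1.37) was above its class's 0.59.

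The miR-30c 3p arms hold the run GGG, in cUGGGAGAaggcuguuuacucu and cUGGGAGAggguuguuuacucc, and no other member with a sequence does. GGG, searched on the mature strand only, occurred in 36.6% of the 714 miRNAs. Those with it had a median log2 enrichment of 2.08 and those without it -0.76. A run of G is a feature of the letters and was not tested as a site of m7G.

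The 5p family was also set beside the other same-seed families with at least 4 tested members of the same arm, 9 families in all with miR-30. The other families hold only miRNAs with a RefSeq sequence. Rows of the miR-320b family carry no arm in their names, so for that family a shared arm is not shown. The 5 miR-30 members were grouped by name, and only 3 of them had a sequence that shows the seed. By median log2 enrichment the miR-30 5p family was the third lowest, after the miR-17-5p family at -3.25 (6 members) and the miR-372-3p family at -3.05 (6 members). The let-7-5p family had a median of 1.00 (9 members). The range within the miR-30 5p family, 3.68, was the third widest, after 6.44 in the miR-454-3p family and 4.01 in the let-7a-3p family. The upper end of that miR-30 range was miR-30d-5p, which has no sequence, and the miR-30 pairs below include such members too. For the 10 miR-30 5p pairs the median absolute difference was 1.87, against 1.00 for 151 other same-seed pairs, whose quartiles were 0.40 and 1.85. No test was made of these differences.

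**Figure D5:**
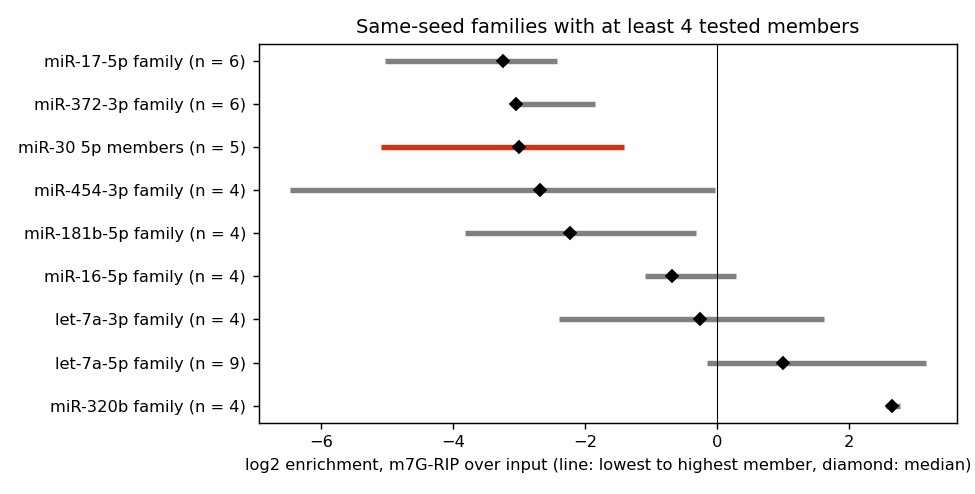
Log2 enrichment of m7G-RIP over input in the 9 same-seed families with at least 4 tested members, each named for 1 of its miRNAs (line, lowest to highest member; diamond, median). The miR-30 5p members, in red and grouped by name, run from -5.08 to -1.41, while the miR-320b family spans only 0.22.

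The miRNAs whose course over the 6 libraries was most like the mean of the 5p members were miR-20a-5p, miR-194-5p and miR-29a-3p. Likeness was the root mean square difference of centred log2 CPM, which was 0.0606, 0.063 and 0.0812 for these. miR-194-5p, an intestinal miRNA, had 15999 ± 148 CPM (SD, n = 3) among input libraries, against 1649 ± 236 CPM (SD, n = 3) after immunoprecipitation. For the mean of the 3p members, which averages opposite courses, the nearest were miR-548q, miR-7-5p and miR-139-5p, at 0.107, 0.108 and 0.112.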

How the data were processed

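Small RNA of Caco-2 cells was sequenced from 3 input and 3 m7G-RIP libraries, grouped by their titles. The authors trimmed adaptors with Trimmomatic, mapped reads to GRCh38 and counted them on miRBase 22 mature miRNAs with featureCounts. The methods name STAR with at most 1 mismatch as the mapper, whereas the submitters' processing notes list Bowtie2. How reads with several loci were counted is not stated. The deposited values are raw counts, not normalized and not pooled.

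From these counts, edgeR 4.0.16 (R 4.3.3) gave log2 enrichment: filterByExpr (minimum count 10, minimum total 15), TMM factors, quasi-likelihood test, Benjamini-Hochberg adjustment over all 800 tested miRNAs, calls at 0.05. Standard errors are the absolute log2 value divided by the square root of F. Arms were compared with library as a factor over 207 hairpins paired by name, and members by scaling libraries to 1 member's count. Counts of 800 miRNAs were simulated with a dispersion of 0.05. In them the enrichment test recovered 65.7%, 95.4% and 100% of log2 changes of 1, 2 and 3. In 207 simulated hairpins the arm test recovered 17.6%, 71.4% and 95.5%. The test scaled by miR-30d-5p recovered 34.6%, 98.7% and 100%, of 628, 79 and 37 changed miRNAs among 799. These rates hold for the simulated dispersion of 0.05 and not for members with more spread. Alternatives were other scalings, DESeq2 1.42.0, other filters, limma 3.58.1 on arm ratios, a replicate block and leaving out each library. Python 3.11.15 was used for summaries and plots, and GENCODE 44 for neighbouring genes. The members named, the miR-30c-1-3p row and the 3 nearest profiles followed a rule written with earlier results of these data known, as were all lists. Without molecular identifiers, amplification stays out of the counting errors. No libraries were copies of each other (chi-square over degrees of freedom, 17.5 to 105). The paper's own fold changes and p-values were not used.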

Additional observations from a re-analysis of the deposited data

How the results depend on the processing

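The number of members enriched, 2 as reported, was 1 with DESeq2's size factors, 1 with DESeq2's Wald test, 3 with upper-quartile factors and 4 with total counts. It was 2 to 2 with each library left out, but without m7G-RIP replicate 1 miR-30c-2-3p was no longer among them (adjusted p = 0.102) and miR-30e-3p was (adjusted p = 0.0289). The number depleted was 6 or 7 under all 13 alternatives. miR-30a-3p reversed to 0.55 with total counts and to 0.29 with upper-quartile factors. The log2 enrichment of miR-30a-5p, miR-30b-5p, miR-30c-5p, miR-30d-5p, miR-30e-5p, miR-30b-3p and miR-30d-3p kept its direction and its call under all 13. Against TMM, the median of all tested miRNAs shifted by 1.09 (total counts), 0.82 (upper quartile), -0.34 (DESeq2) and -0.31 (unfiltered), and depleted miRNAs numbered 198 rather than 305 with total counts, so enrichment near 0 has no fixed sign. The 6 arm differences, which need no such scaling, kept direction and call under all 10 alternatives, with adjusted p-values up to 0.0101 (limma with a replicate block, for miR-30d). The number of called 5p pairs was 8 to 10 and of 3p pairs 7 to 9.

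Same-numbered libraries did not deviate together (correlations of -0.0567, -0.054 and 0.0804), so the numbers were not taken as a pairing. With the replicate block miR-30a-3p was not called (-0.57, adjusted p = 0.0616), nor were miR-30e-5p against miR-30b-5p (-0.43, adjusted p = 0.0905) and miR-30c-2-3p against miR-30e-3p (1.04, adjusted p = 0.153). miR-30e-5p was at -5.09 with the block and miR-30b-3p at 1.94. Depth limits miR-30c-2-3p and miR-30d-3p, with 15 to 50 counts per m7G-RIP library.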
